A study of Mus musculus with 21 samples.

Results

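The comparison is between the cecum of mice on a diet with 1.0% broccoli powder and the cecum of mice on the same diet with 0%. Its members are all libraries whose labels give those treatments, 6 at 0% and 5 at 1.0%, which is 11 of the 21 libraries of the series. The other 10 were at 0.5% and 2.5%, with 5 libraries each. All mice were of the inbred strain C57BL/6 and were fed the Total Western Diet, a rodent diet made to match a typical American nutrient intake, from 3 weeks of age for 6 weeks. The diet with 0% or 1.0% broccoli powder then followed for 3 weeks, so that tissue was taken at about 12 weeks of age. The controls therefore carried the Western diet as well. Each library was messenger RNA from the cecum, the pouch where the small intestine opens into the large bowel, and the labels number the animals without naming a cage. In such bulk tissue, fewer cells of a type and less RNA per cell cannot be told apart.

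Broccoli contains glucosinolates. Their breakdown products include indoles that bind the aryl hydrocarbon receptor, a ligand-activated transcription factor of barrier tissues, and isothiocyanates such as sulforaphane that release the transcription factor NRF2 from its inhibitor KEAP1. The receptor pairs with ARNT on DNA that carries the core letters GCGTG, and its classical targets are Cyp1a1, Cyp1b1, Tiparp and its own repressor Ahrr, while NRF2 drives glutathione and quinone-reducing enzymes.

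Of 15652 genes tested, 0 differed between 1.0% and 0% at an adjusted p under 0.05 in edgeR's quasi-likelihood test with Benjamini-Hochberg adjustment. The share called was thus 0%, and the lowest adjusted p was 0.999 (0.140 to 1.0 over 25 alternatives). DESeq2 and limma voom also called 0 genes. At an unadjusted p under 0.05 there were 498 genes in edgeR (3.18% of those tested, 276 higher and 222 lower at 1.0%), 559 in DESeq2 and 545 in limma voom. The edgeR share is below the 0.05 that such a threshold lets through where no gene differs. The median log2 difference over all genes was -0.0021, 49.4% of genes were positive, and the median standard error was 0.12. A p that misses the threshold does not show that the diets acted alike, so the width of the intervals matters. For 14017 genes (89.6%) the 95% interval of the difference lay within a 2-fold change in either direction, and for 11708 (74.8%) within a 1.5-fold change. Of the 10 named genes lowest in p on each side, Rasd2, Rassf9 and Ahrr were higher at 1.0% by log2 differences of 0.66, 0.38 and 0.68, while Colgalt2 and Siglecf were lower, at -0.70 and -0.66. These and all other values given for 1.0% against 0% did not pass the test. Levels are CPM, counts relative to the library total, scaled with edgeR's TMM factors, values at 1.0% are given in the order of replicates 1 to 5, means are over 6 libraries at 0% and 5 at 1.0%, errors of levels are SD, errors of log2 differences are SE, and intervals are 95%.

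**Figure D1:**
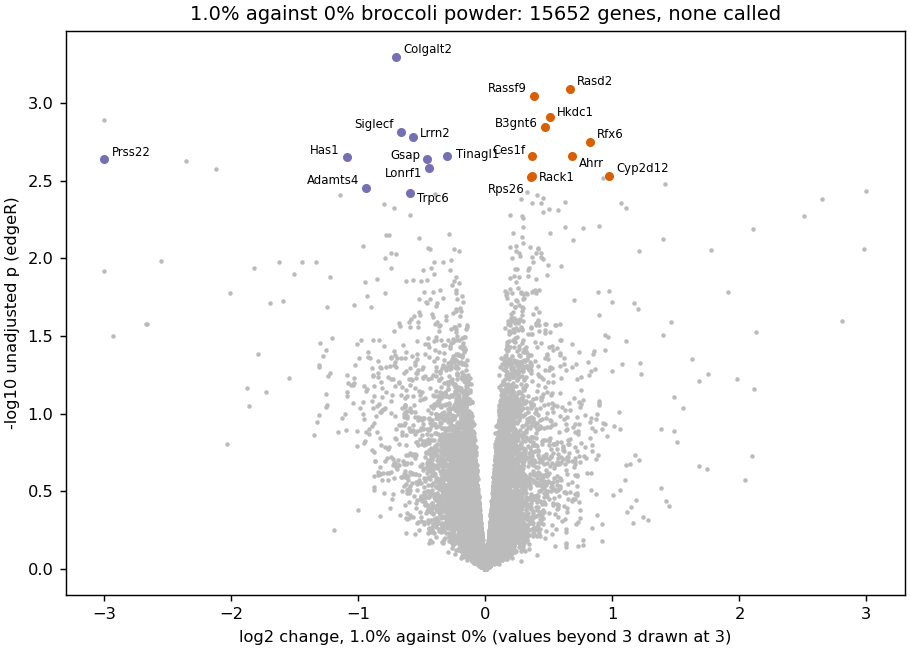
Log2 difference between 1.0% and 0% broccoli powder (x axis) against -log10 of the unadjusted edgeR p (y axis) for 15652 genes, with the 10 named genes lowest in p in each direction in colour. The points spread to both sides of 0 and no gene had an adjusted p under 0.05.

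Library totals were 28514263 to 42687431 counts at 0% and 37327202 to 58594569 at 1.0%, and mitochondrially encoded transcripts took 22.6% to 29.1% and 22.1% to 26.6% of them. A pair of libraries, 0% replicate 5 and 1.0% replicate 1, stood apart on the first principal component (28.8% of the variance), at 50.9 and 51.3 against -19.7 to 1.57 in the other 9. On the second (14.1%), 0% replicate 6 lay at -45.8 and 1.0% replicate 5 at -21.7, against -5.30 to 14.3 in the others. The pair apart on the first component was high in small intestine markers, of which 14 of 16 were tested. Their mean log2 CPM was 5.47 in 0% replicate 5 and 5.93 in 1.0% replicate 1, against 2.15 to 2.84 in the other controls and 2.30 to 2.80 in the rest at 1.0%. Paneth cell markers (4 of 12 tested) had list means of 4.02 and 5.59 in that pair and -1.37 to 0.30 elsewhere. Adipocyte markers (12 of 12 tested) spread more at 1.0% than at 0%: the list mean was 5.43, 1.68, 0.60, 3.06 and 5.09 at 1.0% and 3.19 to 4.83 at 0%. Adipoq, the fat cell hormone adiponectin, was at 63.8, 0.652, 0, 6.58 and 49.3 CPM at 1.0% and at 5.37 to 35.6 CPM (median 19.7) at 0%. No pancreas marker of 11 was tested. Markers of large bowel epithelium and position (13 of 16 tested) had a list mean of 7.23 to 7.82 at 0% and 7.25 to 7.88 at 1.0%. The lowest of each diet was the library high in small intestine markers, at 7.23 and 7.25. The remaining libraries were at 7.52 to 7.82 at 0% and 7.68 to 7.88 at 1.0%. With the small intestine list, the adipocyte list or both as covariates edgeR again called 0 genes, with 571, 633 and 874 at an unadjusted p under 0.05.

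**Figure D2:**
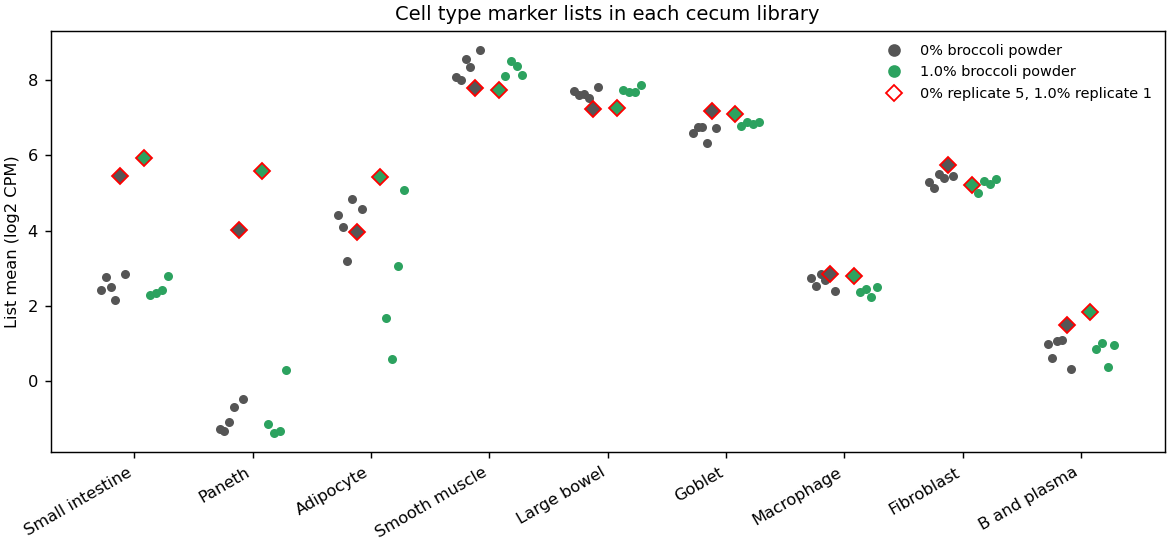
Mean log2 CPM of cell type marker lists (y axis) in each of the 6 libraries at 0% and 5 at 1.0% (points), with 0% replicate 5 and 1.0% replicate 1 as outlined diamonds. That pair lies far above the rest in small intestine and Paneth cell markers, while the adipocyte list runs from 0.60 to 5.43 at 1.0%.

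Ahrr, the repressor that competes with the aryl hydrocarbon receptor for ARNT and is itself a target of the receptor, was 1 of 28 genes (0.179% of those tested) whose 2 groups did not overlap. It lies on GRCm38 at chr13:74211118-74292331 (minus strand). The promoter windows of Ahrr and Cyp1a1 are shown because these were the targets with the lowest p. Each covers 250 bases before to 50 after the RefSeq start on GRCm38.p6 (chr13:74292282-74292581, minus strand, and chr9:57697363-57697662, plus strand), written in the direction of the gene, with matches to the receptor's core GCGTG or its reverse complement in capitals.
Ahrr: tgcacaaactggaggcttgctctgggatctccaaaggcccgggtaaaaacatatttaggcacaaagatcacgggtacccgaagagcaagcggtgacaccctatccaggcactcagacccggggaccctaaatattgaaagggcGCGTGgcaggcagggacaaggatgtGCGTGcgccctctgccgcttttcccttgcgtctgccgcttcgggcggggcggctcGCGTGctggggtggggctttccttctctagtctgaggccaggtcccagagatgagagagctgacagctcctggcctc
Cyp1a1: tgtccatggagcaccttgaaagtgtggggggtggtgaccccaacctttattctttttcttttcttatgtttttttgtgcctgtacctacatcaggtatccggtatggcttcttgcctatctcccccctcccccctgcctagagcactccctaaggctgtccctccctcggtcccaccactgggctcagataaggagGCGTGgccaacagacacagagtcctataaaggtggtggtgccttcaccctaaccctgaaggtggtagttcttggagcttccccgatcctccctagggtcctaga
The Ahrr window held 3 matches and the Cyp1a1 window held 1, as did those of Arnt, Tiparp and Cyp1b1, while those of Nqo1, Ugt1a6a and Cyp1a2 held 0. At least 1 match was present in 32.4% of 32851 RefSeq windows of the same length and at least 2 in 11.1%, and a match is only a match of letters. Sequence outside the windows was not searched, so these counts leave out any site farther from the start. Of the 10 listed genes of this pathway, 8 had a window in the RefSeq table.

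In the controls Ahrr ran from 1.19 to 2.69 CPM (median 2.26), and the libraries at 1.0% held 4.75, 2.84, 3.19, 3.19 and 3.60 CPM. Every library at 1.0% lay above every control, with 0% replicate 6 the lowest and 1.0% replicate 1 the highest of the 11. The means were 2.19 ± 0.524 CPM at 0% and 3.51 ± 0.743 CPM at 1.0%. The log2 difference was 0.68 ± 0.20 (interval 0.27 to 1.09, unadjusted p = 0.00220), and 0.55 without the pair high in small intestine markers. The libraries at 0.5% and 2.5%, which were set against the same 6 controls, averaged 3.31 and 4.42 CPM, and Ahrr passed the test at 2.5% (log2 difference 1.01 ± 0.20, adjusted p = 0.0444 in edgeR).

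Cyp1a1, the cytochrome P450 most closely tied to the receptor, lies at chr9:57687928-57703824 (plus strand). Its level was 0.175 to 1.98 CPM (median 0.392) at 0% and 1.43, 2.21, 0.507, 2.09 and 4.34 CPM at 1.0%. The ranges overlapped through 0% replicate 2 alone, which at 1.98 CPM lay above 1.0% replicates 1 and 3, while no other control exceeded 0.478 CPM. The log2 difference was 1.78 ± 0.61 (interval 0.50 to 3.06, unadjusted p = 0.00885). Nqo1, a quinone reductase under both the receptor and NRF2, was at 47.3 to 66.1 CPM (median 52.2) at 0% and at 56.5, 57.1, 74.3, 68.1 and 71.7 CPM at 1.0%. All 5 libraries at 1.0% exceeded the control mean, but 2 controls reached the same range, and the difference was 0.26 ± 0.11 (interval 0.03 to 0.48). The receptor itself, Ahr, differed by -0.07 ± 0.09, its partner Arnt by -0.05 ± 0.05 and Tiparp, an ADP-ribosyltransferase that restrains the receptor, by -0.06 ± 0.12, and their intervals of -0.26 to 0.13, -0.15 to 0.06 and -0.31 to 0.19 all held 0. Cyp1b1, a relative of Cyp1a1, differed by 0.41 ± 0.61 (interval -0.86 to 1.68), or by -0.03 without 1.0% replicate 1 and 1.17 without 0% replicate 5. Its highest control was 0% replicate 5 (3.74 CPM) and its highest library at 1.0% was replicate 1 (3.49 CPM), the same pair that was high in small intestine markers. Of the list of the receptor, its partner and its targets, 7 of 10 were tested, 4 were positive and 3 had an unadjusted p under 0.05, all higher (1.76% of all genes did so). The list's median of 0.26 became -0.03 without 1.0% replicate 1. A median of 7 genes is the value of the middle gene, which was Nqo1 in the full fit and Cyp1b1 without that library.

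**Figure D3:**
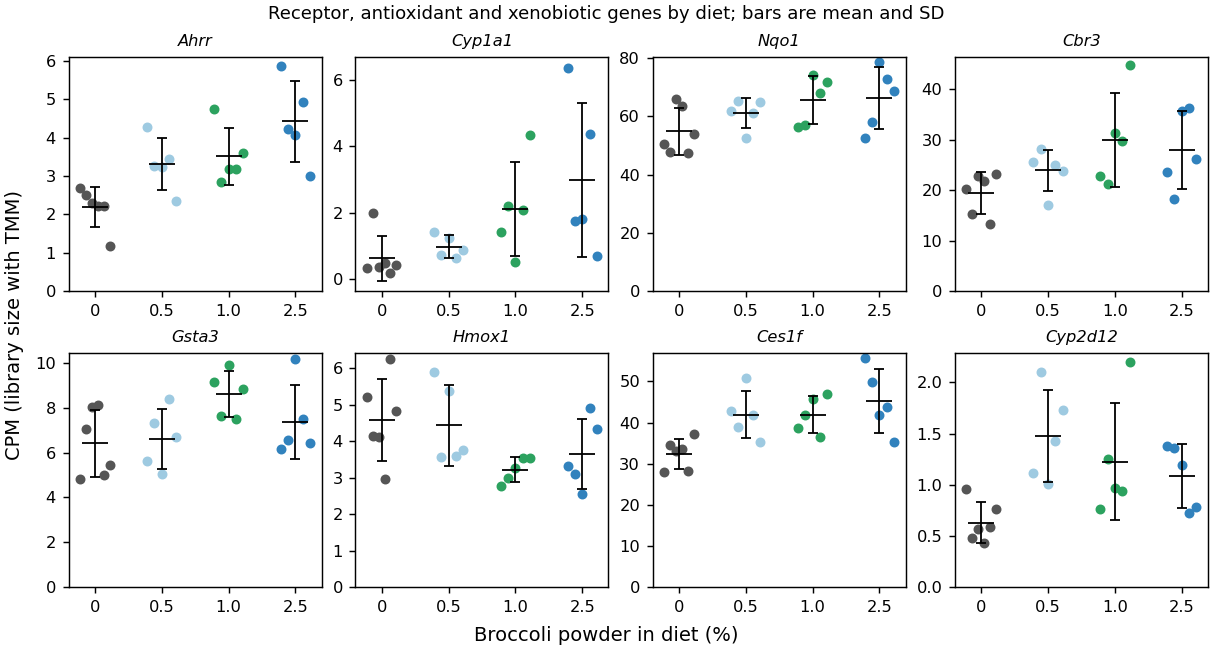
Level of 8 genes of the receptor, NRF2 and xenobiotic lists in CPM (y axis) by percent of broccoli powder (x axis), 1 point a library, bars mean and SD over 6 libraries at 0% and 5 at each other diet. At 1.0% the points of Ahrr all lie above those at 0%, and the points of the other 7 genes overlap them.

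Among NRF2 targets and glutathione genes, 24 of 30 tested members were positive, with a median log2 difference of 0.10. It stayed between 0.07 and 0.14 in the 13 of 25 alternatives for which list medians were computed. The library means of the list overlapped between the diets, at 5.17 to 5.36 at 0% and 5.22 to 5.53 at 1.0%. Of the 30, 3 had an unadjusted p under 0.05 on the higher side and 2 on the lower (1.76% and 1.42% of all genes). Cbr3, a carbonyl reductase, was at 13.3 to 23.2 CPM (median 21) at 0% and at 22.8, 21.3, 31.3, 29.7 and 44.8 CPM at 1.0%. Replicates 1 and 2 lay among the controls and replicates 3, 4 and 5 above them all, with replicate 5 highest. The log2 difference was 0.63 ± 0.21 (interval 0.20 to 1.05, unadjusted p = 0.00630). Gsta3, a glutathione transferase, was at 4.83 to 8.13 CPM (median 6.23) at 0% and 9.15, 7.63, 9.89, 7.49 and 8.82 CPM at 1.0%, a difference of 0.42 ± 0.16 (interval 0.09 to 0.76). Gclm, the modifier subunit of the enzyme that starts glutathione synthesis, differed by 0.14 ± 0.07, and Gclc, the catalytic subunit, by 0.01 ± 0.09 (interval -0.18 to 0.20).

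In the opposite direction stood Hmox1, the haem-degrading enzyme, at 2.97 to 6.24 CPM (median 4.48) at 0% and 2.76, 3.00, 3.27, 3.53 and 3.55 CPM at 1.0%. All 5 libraries at 1.0% were below the control mean, and 1 control, at 2.97, fell among them. The difference of -0.51 ± 0.19 (interval -0.90 to -0.11) became -0.35 without the pair high in small intestine markers, of which 0% replicate 5 was the highest control (6.24 CPM). The cystine transporter Slc7a11 differed by -1.28 ± 0.58, which rested on 0% replicate 5 at 50.5 CPM. Without the pair its difference was -0.16, and it also overlaps the predicted gene Gm37498.

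Cytochrome P450 and carboxylesterase genes of xenobiotic metabolism were positive in 20 of 24 tested members, with a median of 0.10 and 2 genes under an unadjusted p of 0.05, both higher (1.76% of all genes were). The library means of this list overlapped as well, at 4.47 to 4.73 at 0% and 4.54 to 5.03 at 1.0%. Ces1f, a carboxylesterase that cleaves drug and lipid esters, was at 27.9 to 37.2 CPM (median 33.4) at 0% and at 38.6, 41.8, 45.8, 36.4 and 47 CPM at 1.0%. Only replicate 4 lay within the range of the controls. The difference was 0.37 ± 0.11 (interval 0.15 to 0.59, unadjusted p = 0.00219), and 0.36 without the pair. Cyp2d12, a P450 of the large Cyp2d cluster, was at 0.428 to 0.961 CPM (median 0.578) at 0% and 0.760, 1.26, 0.972, 0.940 and 2.20 CPM at 1.0%, a difference of 0.97 ± 0.30 (interval 0.37 to 1.58). Cyp2c55, a P450 of the large bowel, differed by 0.07 ± 0.12, and its interval of -0.19 to 0.33 lay within a 1.5-fold change in either direction. Its mean was 3101 CPM at 0%, where replicate 5 alone was low at 1813 CPM, and 3254 CPM at 1.0%. Conjugating enzymes were positive in 10 of 12 tested members, with a median of 0.11 and none under an unadjusted p of 0.05. Their library means also overlapped between the diets.

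Ahrr, Ces1f and Cyp2d12 were among the 10 named genes lowest in p on the higher side. Rassf9, which codes for an endosomal protein of the RASSF family, was at 5.02 to 5.94 CPM (median 5.53) at 0% and at 6.46, 6.82, 7.94, 8.02 and 6.72 CPM at 1.0%. As with Ahrr, its groups did not overlap, and the difference was 0.38 ± 0.10 (interval 0.17 to 0.59, unadjusted p = 0.000898). Rasd2, a small GTPase of the Ras family, differed by 0.66 ± 0.17 (unadjusted p = 0.000810), with 5.55 to 8.93 CPM (median 6.15) at 0% and 12.7, 9.12, 9.42, 13 and 8.65 CPM at 1.0%. One control, replicate 3, exceeded the lowest library at 1.0%. The hexokinase-like gene Hkdc1 differed by 0.51 ± 0.14, B3gnt6, which builds the core 3 O-glycans of intestinal mucin, by 0.47 ± 0.13, and Rfx6, a transcription factor of enteroendocrine cells, by 0.82 ± 0.23. B3gnt6 was at 7.96 to 12.7 CPM (median 9.41) at 0% and at 12.9, 12.3, 12.8, 15.4 and 14.3 CPM at 1.0%, so that 1 control entered the range at 1.0%. Rfx6 was at 0.496 to 1.06 CPM (median 0.890) at 0% and at 1.05, 1.70, 1.75, 2.04 and 1.03 CPM at 1.0%, where replicates 1 and 5 met the highest controls and the other 3 lay above them. Genes of the ribosome followed, with Rack1 at 0.37 ± 0.11 and Rps26 at 0.36 ± 0.11, both highest in 1.0% replicate 5 (52.7 and 45.7 CPM). Rack1 lies opposite Trim41, and whether the counting used strand is not given in the sources used here.

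On the lower side the lowest p belonged to Colgalt2, a collagen galactosyltransferase, at 4.22 to 7.94 CPM (median 6.46) at 0% and 5.18, 4.26, 3.74, 3.21 and 3.07 CPM at 1.0%. Controls 3 and 4 overlapped with 1.0% replicates 1 and 2, and the difference was -0.70 ± 0.17 (interval -1.06 to -0.34, unadjusted p = 0.000506). Its means at 0.5% and 2.5% were 4.06 and 4.26 CPM, against 3.89 at 1.0% and 6.32 in the shared controls. Siglecf, a sialic acid receptor of eosinophils and tuft cells, was at 1.56 to 2.39 CPM (median 2.04) at 0% and 1.71, 1.14, 1.18, 1.15 and 1.25 CPM at 1.0%. Replicate 1 was the 1 library at 1.0% inside the control range, and the difference of -0.66 ± 0.19 was -0.74 without the pair. At 0.5% and 2.5% Siglecf averaged 1.76 and 1.92 CPM. Lrrn2, a leucine-rich repeat protein of neurons, differed by -0.57 ± 0.16, Tinagl1, a matricellular protein, by -0.30 ± 0.09, and Has1, a hyaluronan synthase, by -1.09 ± 0.32. Adamts4, a protease of the extracellular matrix, was at 3.09 to 8.80 CPM (median 4.32) at 0% and 2.40, 2.37, 2.03, 2.95 and 2.69 CPM at 1.0%, with no overlap. The difference of -0.94 ± 0.29 was -0.65 without the pair, of which 0% replicate 5 was the highest control, and the gene overlaps another on the opposite strand. The serine protease Prss22 had a fitted difference of -5.23 ± 1.46, which rested on 0% replicate 5 at 34 CPM. Without the pair it was -1.92. The list of 10 lower genes was completed by Gsap (opposite Ccdc146) at -0.46 ± 0.13, Lonrf1 at -0.44 ± 0.13 and the cation channel Trpc6 at -0.59 ± 0.18. In 25 alternatives all 20 of these genes kept their direction, except that Prss22 had a value in 24. The genes were picked for low p on the same libraries, so a kept direction was largely fixed by the choice.

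Of the 28 genes without overlap, 21 lay above the controls (0.134%) and 7 below (0.0447%). Random order alone would separate 6 libraries fully from 5 in a larger share of genes than the 0.179% seen here. Lack of overlap therefore does not single out a gene. Beside Rassf9, Ahrr and Adamts4, several of the 28 are known from core cell biology and were picked out after their values were seen. Maoa, the monoamine oxidase that breaks down serotonin, was at 310.3 to 477 CPM at 0% and 495 to 509 CPM at 1.0%, a log2 difference of 0.23 ± 0.09, or 0.15 without the pair. The 5 libraries at 1.0% were close together, while 0% replicate 5 was lowest at 310.3 CPM. Mcm7, a subunit of the replicative helicase, ran from 6.29 to 7.42 CPM at 0% and 7.46 to 9.22 CPM at 1.0%, with Cops6 and Ap4m1 lying opposite. Slc19a1, the reduced folate carrier, ran from 6.30 to 8.07 CPM at 0% and 8.08 to 9.71 CPM at 1.0% and differed by 0.35 ± 0.12. Ndufaf1, an assembly factor of respiratory complex I, ran from 9.61 to 12.4 CPM at 0% and 13 to 14.1 CPM at 1.0% and differed by 0.26 ± 0.09. Anapc13, of the anaphase-promoting complex, ran from 4.81 to 6.68 CPM at 0% and 6.72 to 7.91 CPM at 1.0%. Among the genes below the controls were Tln1, the adhesion protein talin (-0.10 ± 0.07), and Ldah, a hydrolase of lipid droplets (-0.15 ± 0.06).

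Over the gene lists, 27 of 42 had a positive median, against a median of -0.0021 over all genes. Goblet cell markers were positive in 9 of 12 members (median 0.18), led by the secreted mucus protein Clca1 at 226 to 426 CPM (median 289) at 0% and 581, 344, 361, 314 and 512 CPM at 1.0% (difference 0.50 ± 0.16, interval 0.17 to 0.84). Tff3, a trefoil peptide of goblet cells, differed by 0.28 ± 0.12. The mucin Muc2 differed by -0.08 ± 0.38, with 0% replicate 5 at 3777 CPM against 678 to 1290 in the other controls, and by 0.31 without the pair. The list of large bowel transport of ions, water and short-chain fatty acids was positive in 20 of 24 (median 0.09). In it, the chloride and bicarbonate exchanger Slc26a3 was at 536 to 969 CPM (median 790.0) at 0% and 838, 1005, 1090, 1009 and 880.0 CPM at 1.0% (0.34 ± 0.13). The water channel Aqp4 differed by -1.69 ± 0.66, on 0% replicate 5 at 209 CPM, and by -0.43 without the pair. Of cell cycle and DNA replication genes 19 of 26 were positive (median 0.10), with the helicase subunits Mcm5 at 0.39 ± 0.15 and Mcm6 at 0.27 ± 0.10. Enteroendocrine markers were positive in 9 of 12 (median 0.22), and none had an unadjusted p under 0.05. Library means of the goblet, transport, cell cycle and enteroendocrine lists all overlapped between the diets. Fabp2, the intestinal fatty acid binding protein, was at 127 to 230.0 CPM (median 159) at 0% and 248, 229.6, 221, 191 and 201 CPM at 1.0% (difference 0.40 ± 0.13, or 0.30 without the pair). It belongs to the small intestine marker list, of which 9 of 14 tested members were positive and 5 negative, from -0.63 to 1.42.

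The lists of fibroblasts, macrophages, enteric neurons and smooth muscle had negative medians. Fibroblast and collagen markers were negative in 10 of 11 members (median -0.19), of which 3 had an unadjusted p under 0.05 (1.42% of all genes did so on the lower side). Col6a2, a chain of collagen VI, was at 57 to 68.9 CPM (median 60.4) at 0% and 59.6, 45.5, 48.5, 51.4 and 49.99 CPM at 1.0%, with replicate 1 alone among the controls (-0.28 ± 0.10, interval -0.49 to -0.07). Col5a1 differed by -0.44 ± 0.15 and Col1a1 by -0.53 ± 0.22. Macrophage markers were negative in 10 of 11 (median -0.20). The mannose receptor Mrc1 was at 7.90 to 10.1 CPM (median 9.04) at 0% and 8.36, 6.56, 8.34, 5.33 and 5.88 CPM at 1.0% (-0.40 ± 0.12, interval -0.66 to -0.14), and C1qb, a chain of complement C1q, differed by -0.42 ± 0.16, while C1qa, another chain, differed by 0.19 ± 0.11. Enteric neuron and glia markers were negative in 15 of 17 (median -0.15) and smooth muscle markers in 9 of 10 (median -0.16, or 0.02 without 0% replicate 6). The library means of the fibroblast list were 5.13 to 5.74 at 0% and 4.99 to 5.36 at 1.0%, and those of the smooth muscle list 7.80 to 8.79 at 0% and 7.73 to 8.50 at 1.0%, so both overlapped between the diets. All 13 mitochondrially encoded genes were negative (median -0.15), and their list means of 13.07 to 13.58 at 0% and 13 to 13.40 at 1.0% also overlapped.

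**Figure D4:**
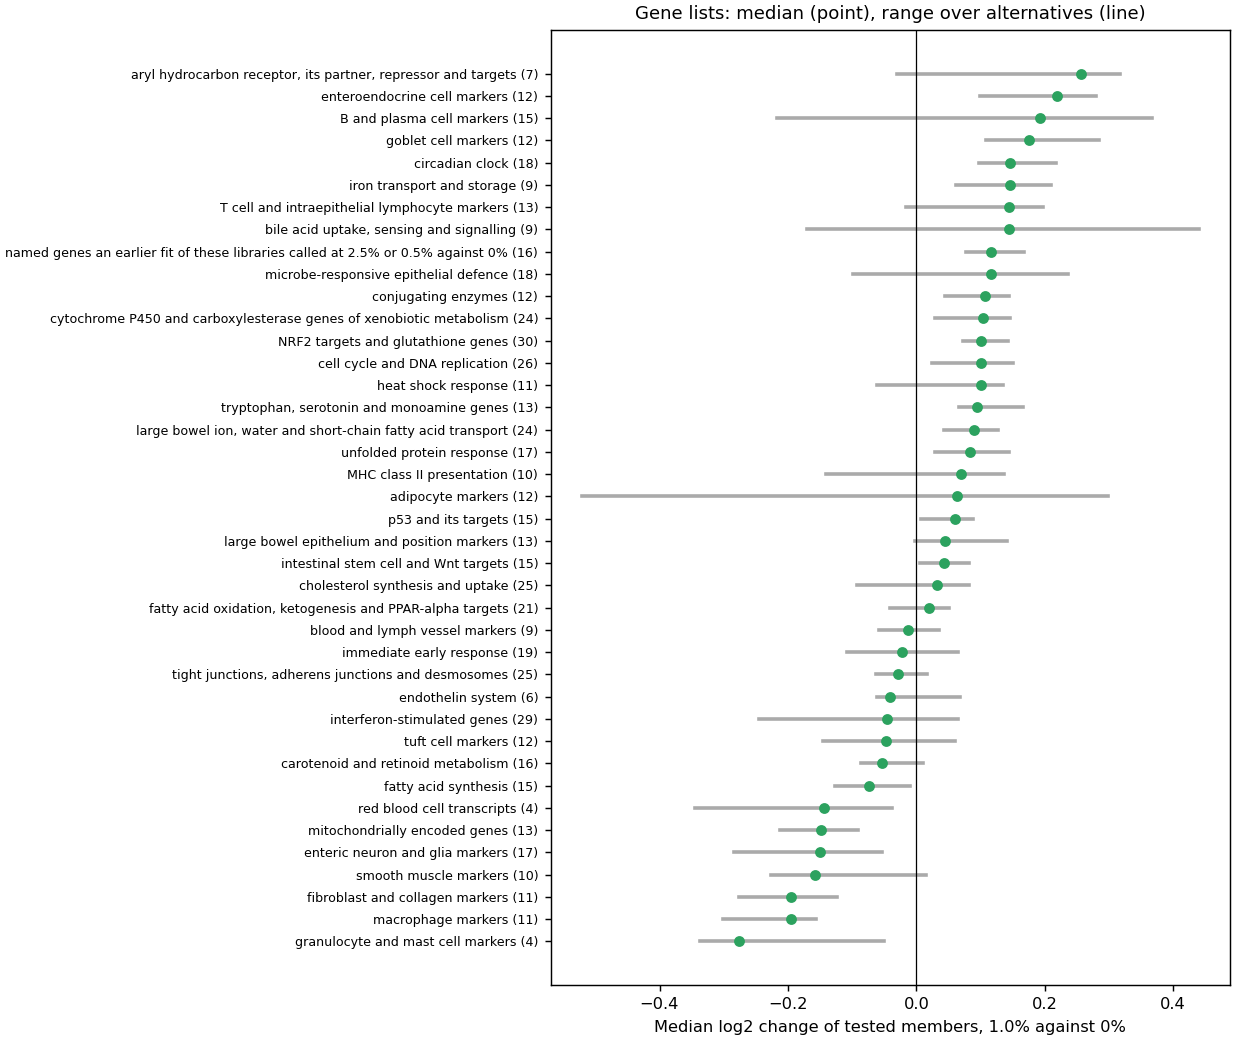
Median log2 difference between 1.0% and 0% (x axis, points) of the tested members of 40 gene lists (y axis, number tested in brackets), with lines for the lowest and highest median over the 13 alternatives with list medians. The small intestine and Paneth cell lists are left out for scale, and the list medians lie between -0.28 and 0.26.

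The circadian clock list was positive in 11 of 18 members (median 0.15), but it holds genes of opposite phase, so its median describes no shared direction. Nfil3, a repressor of the clock's output genes, was at 5.87 to 16 CPM (median 10.9) at 0% and 6.58, 6.03, 5.89, 7.65 and 7.33 CPM at 1.0%. The libraries at 1.0% were close together, 3 controls exceeded 13 CPM, and the difference was -0.71 ± 0.25 (interval -1.22 to -0.19). Per2, a core repressor, differed by 0.40 ± 0.15, Ciart by 0.55 ± 0.23 and Cry2, another core repressor, by 0.31 ± 0.14. Dbp, an output gene of the clock, held 3.95 to 19.3 CPM (median 9.66) at 0% and 23.3, 22, 23.4, 11.8 and 14 CPM at 1.0%, a difference of 0.89 ± 0.48 with an interval of -0.13 to 1.91, and lies opposite Sphk2. Arntl, which is expressed in the opposite phase to Dbp, differed by -0.26 ± 0.13. The labels do not give the order of sampling, and its part in these values was not tested.

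Interferon-stimulated genes were positive in 11 of 29 (median -0.05), and the list means were spread by single mice, with 3.96 in 1.0% replicate 2, 4.06 in 0% replicate 6 and 3.84 in 0% replicate 1 against 3.03 to 3.43 in the other 8 libraries. Microbe-responsive defence genes showed the pair again. Reg3g, a secreted lectin that binds bacteria, reached 67.9 CPM in 0% replicate 5 and, in 1.0% replicate 1, 97 CPM, with no more than 0.978 CPM in the other 9 libraries. Its log2 difference of 0.73 ± 1.91 had an interval of -3.30 to 4.76, which holds large changes in either direction. Of fatty acid synthesis genes 3 of 15 were positive (median -0.07). Tjp1, a tight junction scaffold, differed by 0.08 ± 0.07 (interval -0.07 to 0.24).

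The 1.0% diet was also set beside the other broccoli diets, which share the 6 controls with it. In the same fit 17 genes (0.109%) passed at 2.5% and 1 (0.00639%) at 0.5%. A list of 16 named genes that an earlier fit of these libraries called at 2.5% or 0.5% had 13 members positive at 1.0%, with a median of 0.12. The list was chosen on these libraries, controls included, and is no independent evidence. Edn3, the peptide endothelin 3, averaged 27.4, 35.4, 32 and 41 CPM at 0%, 0.5%, 1.0% and 2.5%, and its difference at 1.0% was 0.22 ± 0.10, or 0.10 without the pair. Zfp395, a zinc finger protein, averaged 29.1, 22.4, 24.8 and 20.9 CPM (-0.23 ± 0.09 at 1.0%). Hmga1b, a chromatin protein with a near copy in Hmga1, differed at 1.0% by 0.30 ± 0.12, Cyp2c23, an arachidonic acid epoxygenase, by 0.25 ± 0.22, and Hist1h1e, a linker histone, by 0.12 ± 0.33 (interval -0.55 to 0.80).

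Set directly against the mean of 0.5% and 2.5%, 1.0% differed in 0 genes in edgeR, with a lowest adjusted p of 0.437 and 1164 genes (7.44%) at an unadjusted p under 0.05, and in 2 genes in DESeq2. Those 2 were Arl4d, an ARF-like small GTPase, and Zfp143, a transcription factor of promoters. Arl4d was at 12.4 to 17.4 CPM (median 14.3) at 0% and 12.2, 12.9, 13.5, 16.8 and 13.6 CPM at 1.0%, while its means at 0.5% and 2.5% were 8.98 and 10.1 CPM. The log2 difference of 1.0% was -0.11 ± 0.12 from 0% and 0.53 ± 0.10 from the other broccoli diets (adjusted p = 0.437 in edgeR and 0.0130 in DESeq2). Zfp143 averaged 21.7, 24.1, 20.4 and 26 CPM in order of dose, a difference of -0.30 ± 0.06 from the other broccoli diets (adjusted p = 0.614 in edgeR and 0.0364 in DESeq2), and lies opposite AA474408.

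Spp1, the secreted phosphoprotein osteopontin, held 1.40, 1.30, 1.08, 1.18 and 1.01 CPM at 1.0% and 0.931 to 1.84 CPM (median 1.15) at 0%, and averaged 0.856 and 0.362 CPM at 0.5% and 2.5%. The interval of its difference at 1.0% from 0% was -0.58 to 0.50, while at 2.5% the difference was -1.75 ± 0.29. Pax8, a paired-box transcription factor, differed by 0.07 ± 0.12 at 1.0% (interval -0.17 to 0.30) and by 0.72 ± 0.11 at 2.5%. The direct difference between 1.0% and the mean of the other broccoli diets was 1.09 ± 0.24 for Spp1 (adjusted p = 0.614 in edgeR) and -0.44 ± 0.11 for Pax8 (adjusted p = 0.614), and neither passed. Trpv6, an epithelial calcium channel, held 80.3, 136, 106, 100.3 and 163 CPM at 1.0% and averaged 76.3, 30.9 and 65.6 CPM at 0%, 0.5% and 2.5%. Egfr, the epidermal growth factor receptor, averaged 48.3 CPM at 1.0% and 55, 61 and 59.4 CPM at the other diets, with 5 of 5 libraries at 1.0% below the control mean. That mean included 0% replicate 5 at 66.7 CPM, against 50.7 to 56.0 CPM in the other controls, and the ranges at 0% and 1.0% overlapped.

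**Figure D5:**
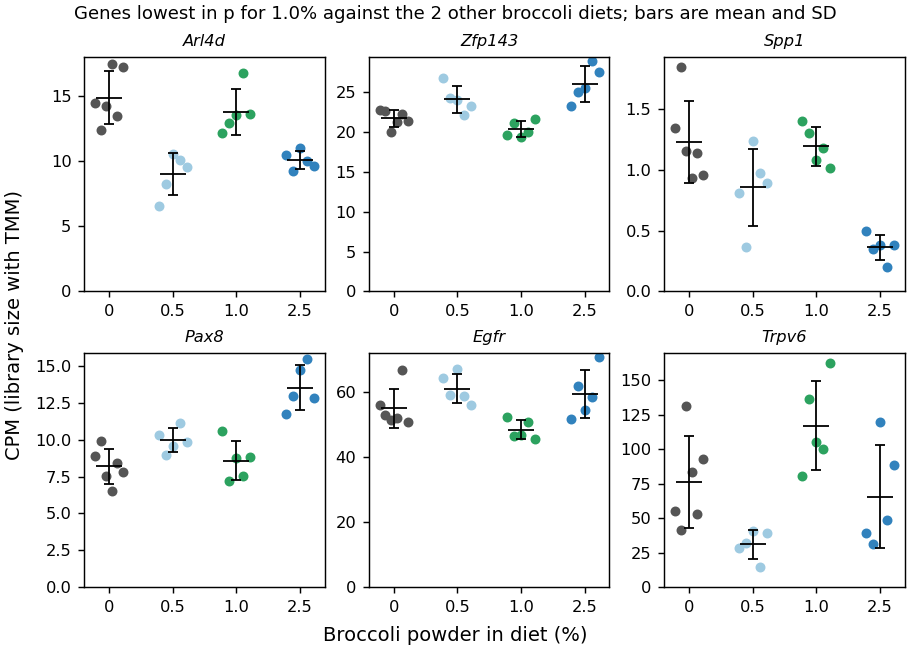
Level of 6 genes in CPM (y axis) by percent of broccoli powder (x axis), 1 point a library, bars mean and SD over 6 libraries at 0% and 5 at each other diet. For Arl4d and Spp1 the points at 1.0% lie near those at 0%, and for Zfp143 and Egfr they are the lowest on average.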

How the data were processed

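Per the labels' protocols, RNA extracted with Tri-Reagent and column kits was made into stranded mRNA libraries. Raw read counts per gene were deposited in 1 table, and the submitters' processing notes name the build mm10. Not given in the sources used here are the aligner, counting tool, annotation and strand setting. Names and coordinates came from GENCODE M21 on GRCm38, in which 25268 of 25361 listed identifiers were found. Of those listed, 5881 had a count of 0 in all libraries, and filterByExpr kept 15652.

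All 21 libraries were fitted together in edgeR 4.0.16 (R 4.3.3) with TMM scaling and the robust quasi-likelihood test. All tests were two-sided. Adjusted p-values are Benjamini-Hochberg values over the 15652 genes, with calls made below 0.05. The edgeR fit was tested on simulated data. The alternatives were DESeq2 1.42.0, limma 3.58.1 (voom), a fit of the 11 libraries alone, RLE factors or library totals in place of TMM, no filter or at least 1 CPM in 5 libraries, a fit without robust estimation, covariates of marker lists (small intestine, adipocyte, both, or smooth muscle with B cells), and fits without the pair high in small intestine markers, without the 3 animals numbered above 70, and without each library in turn. List means are of log2 CPM with a prior count of 2. Interval bounds are 95% limits of the log2 difference. The SE of a log2 difference was derived from the test, as its absolute value over the square root of the F statistic. The bounds are symmetric about the difference and use a t quantile, so both are approximate.

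Groups came from the treatment in the labels. Replicate numbers were given in accession order and pair nothing. The labelled animal numbers ran from 8 to 17 at 0% and from 31 to 37 at 1.0%, with 1.0% replicate 5 numbered 80, so numbering and diet cannot be told apart. Where mice shared a cage, p-values would be too small. A chi-square test of counts (genes summing to 20 or more) gave at least 17.1 per degree of freedom for every pair within 0% and within 1.0%. No library of these thus repeated another of its diet, and pairs across diets were not compared.

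The members and the 43 gene lists were chosen with earlier results of these data known. Genes named were the 10 lowest in p in each direction among named protein coding genes with at least 1 CPM in a group, up to 4 members of each list lowest in p with others needed for their role, anchor genes of the diet's known pathways, genes called at another dose, and the 5 lowest in p in each direction against the other broccoli diets. Predicted genes were counted, not named, and some genes that the rule names are not reported here. Promoter windows are from RefSeq on GRCm38.p6.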

Additional observations from a re-analysis of the deposited data

Results flagged for a closer look

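In 26 of 202 groups of values checked (12.9%), a single library lay far from the others of its diet by Dixon's criterion, which chance alone meets in about 1 group in 20. Most of these libraries were 0% replicate 5 and 1.0% replicate 1, the pair high in small intestine markers. That pair was known beforehand to be high in these markers, and the groups share genes and libraries. The share of 12.9% is therefore a description and no test against 1 in 20. As mean log2 CPM, 0% replicate 5 stood at 5.47 for small intestine markers (other controls 2.15 to 2.84), 4.02 for Paneth cell markers (-1.33 to -0.47), 5.02 for epithelial defence (2.87 to 3.37), 5.01 for bile acid genes (2.51 to 2.96) and 5.16 for stem cell and Wnt genes (4.22 to 4.49). Its levels of Reg3b (78.2 CPM), Reg3g (67.9 CPM), Muc2 (3777 CPM), Cyp1b1 (3.74 CPM), Adamts4 (8.80 CPM) and Egfr (66.7 CPM) were the highest of the controls by a wide gap, and that of Cyp2c55 (1813 CPM) the lowest. In 1.0% replicate 1 the list means were 5.93 for small intestine markers (others at 1.0% 2.30 to 2.80), 5.59 for Paneth cell markers (-1.37 to 0.30), 5.01 for stem cell and Wnt genes (4.30 to 4.49), 7.06 for junction genes (6.75 to 6.82) and 2.67 for MHC class II genes (2.13 to 2.28). The same library held 1973 CPM of Muc2 (others 1145 to 1262) and 1.71 CPM of Siglecf (others 1.14 to 1.25).

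Other single libraries stood apart as well. Control replicate 6 was low in Ahrr at 1.19 CPM (other controls 2.21 to 2.69), in Has1 at 0.264 CPM (0.956 to 1.54) and in the mean of tryptophan and monoamine genes at 2.29 (2.60 to 2.72). Control replicate 2 was high in Cyp1a1 at 1.98 CPM (0.175 to 0.478). At 1.0%, replicate 2 was high in interferon-stimulated genes at 3.96 (3.19 to 3.33) and in fatty acid oxidation genes at 6.37 (6.02 to 6.12), and replicate 4 was low in granulocyte and mast cell markers at -0.27 (0.37 to 0.55).

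For 5 comparisons every library at 1.0% lay on one side of the mean of the shared controls and every library of another broccoli diet on the other side, a difference that was not tested pair by pair. Only genes named by the rules were checked, among them those picked for a low p against the other broccoli diets. Opposite sides were thus partly built in by the choice, and no share over all genes was computed. In log2 terms of mean levels, 1.0% against 0.5% stood at -0.19 against 0.15 for Egfr, 0.62 against -1.30 for Trpv6, -0.094 against 0.11 for R3hcc1l, and -0.092 against 0.15 for Zfp143. Zfp143 also stood at -0.092 at 1.0% against 0.26 at 2.5%. Against the mean of the other broccoli diets none of these genes passed in edgeR, and Zfp143 passed in DESeq2 (adjusted p = 0.0364).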

How the results depend on the processing

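The count of 0 genes for 1.0% against 0% held in all 25 alternatives, with 393 to 874 genes at an unadjusted p under 0.05. The lowest adjusted p was 0.999, and among the alternatives it was 0.140 with the small intestine and adipocyte covariates, 0.409 without 1.0% replicate 4, 0.596 without 0% replicate 6 and 0.607 in DESeq2. The highest counts, 768 and 874, came without 0% replicate 6 and with the small intestine and adipocyte lists as covariates together. The adipocyte covariate and that pair of covariates were chosen after seeing the data. Leaving out each of the 11 libraries gave 0 to 0 calls. The count of 0 against the mean of 0.5% and 2.5% held in 7 alternatives (0 to 0 without each library at 1.0%), and DESeq2 gave 2. Of 42 lists, 27 had a positive median, 18 to 30 when 1 library was left out (18 without 1.0% replicate 1), 29 with library totals and 20 without the pair high in small intestine markers. List medians were computed in 13 of the 25 alternatives, and in all 13 of them 21 lists kept their direction. B and plasma cell markers, bile acid and MHC class II genes were among those that turned negative without 1.0% replicate 1 (medians of -0.22, -0.17 and -0.14). No paired analysis was possible because the labels give no replicate number shared between diets. The intervals rest on 6 and 5 mice, at library totals of at least 28514263 counts.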

Other observations

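Genes of cytosolic ribosomal proteins were examined after Rps26 and Rpsa had been seen among the genes lowest in p or without overlap. Of 76 tested, 55 were positive at 1.0% against 0%, with a median log2 difference of 0.08. An unadjusted p under 0.05 was reached by 8 on the higher side and by 0 on the lower, against 1.76% and 1.42% of all genes, and the lowest adjusted p in edgeR was 0.999. The mean log2 CPM of these genes was 3.70 to 3.84 in the 6 libraries at 0%. At 1.0% it was 3.84, 3.70, 3.71, 3.82 and 4.10 in replicates 1 to 5, so 1 library lay above all controls. That library, replicate 5, was also the deepest, with 58594569 counts, and the animal whose number lay outside its diet's block. The part of either in these values was not tested.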
